A study of Mus musculus with 6 samples.

Results

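The CD300, SIRP, CD33 and related LILR and PILR receptors described here are 9 genes of mouse myeloid cells: Cd300a, Cd300lb, Cd300ld, Cd300lf, Cd33, Sirpa, Lilrb4a, Pilra and Pirb. They were chosen as paired activating and inhibitory receptors, and Cd300lf and Cd33 were chosen by their measured values, because they lay in opposite directions after infarction. Of the 9 genes, 8 had probes on the array, 16 in all, out of 19057 named genes with a probe. Pirb had none in the platform annotation and was not analysed here. All 8 genes passed the detection filter, as did 15 of their 16 probes, among 10533 genes and unnamed probes tested.

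The study measured RNA of M2-like macrophages, defined in its title by the surface proteins CD206, F4/80 and CD11b, on 6 Illumina mouse bead arrays. The cells came from C57BL/6 mice aged 10 weeks and from 3 sources, with 2 arrays each: the heart with myocardial infarction (MI heart), the intact heart and the peritoneal cavity. No group is labelled as sham-operated, and the sources used here do not give the time after infarction, the animals behind an array or the sort protocol. The labels name no transgene, drug or deletion.

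Most of these receptors work as opposed pairs. Inhibitory members carry tyrosine motifs in a long cytoplasmic tail that recruit phosphatases such as SHP-1 and SHIP1, while activating members have short tails and signal through adaptors such as DAP12 or the Fc receptor gamma chain. Their known ligands include lipids exposed on dying cells for several CD300 proteins, sialic acid for CD33, CD47 for SIRPα and MHC class I for PIR-B, and in macrophages they are known for tuning phagocytosis and inflammatory responses.

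Each array had 27.5% to 32.3% of its 45281 probes above background, with a median raw signal of 79.8 to 83.9. Levels below are background-corrected, quantile-normalized log2 signals, on which the lowest level counted as above background was between 4.42 and 4.52 depending on the array, and levels of different probes are not comparable. Differences are log2 differences ± SE from limma (n = 2 arrays per group), with p-values adjusted over all 10533 tests by Benjamini-Hochberg and a threshold of 0.05. Precision is limited by having 2 arrays per group. No label ties the arrays of a group to separate animals, and tests see only the spread between arrays, whether technical or not. In sorted cell pools, fewer cells with a transcript and less transcript per cell cannot be told apart. Of 10 macrophage markers, 9 had probes and all 9 passed the filter. The F4/80 gene Adgre1 was at 7.51 and 8.16 in the MI heart, 7.70 and 7.38 in the intact heart and 7.74 and 8.21 in the peritoneal cavity. The CD206 gene Mrc1 was at 8.64 and 9.07 in the MI heart and at 9.57 and 9.51 in the intact heart, but at 5.20 and 4.99 in the peritoneal cavity, where this sorting marker was thus low. The CD11b gene Itgam was at 7.15 and 6.86 in the MI heart, 6.32 and 5.64 in the intact heart and 8.16 and 7.96 in the peritoneal cavity.

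Cd300lf and Cd33 are the members with the largest differences between the 2 heart sources, and their promoters are shown to set the start sites of these oppositely placed genes side by side. Each window spans 300 bases around the transcription start, most of them before it, as given by RefSeq on GRCm38.p6, 5′ to 3′ on the gene's own strand. The Cd300lf window is chr11:115133943-115134242 on the minus strand, and the Cd33 window is chr7:43533122-43533421, also on the minus strand. Capitals mark GAGGAA on either strand, the core letters bound by PU.1, the transcription factor of myeloid cells.
Cd300lf: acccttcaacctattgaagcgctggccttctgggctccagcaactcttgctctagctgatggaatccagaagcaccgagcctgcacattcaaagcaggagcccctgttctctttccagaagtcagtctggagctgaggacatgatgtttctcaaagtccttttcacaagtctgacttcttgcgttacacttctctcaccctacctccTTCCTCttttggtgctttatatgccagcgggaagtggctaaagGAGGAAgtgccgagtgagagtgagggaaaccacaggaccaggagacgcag
Cd33: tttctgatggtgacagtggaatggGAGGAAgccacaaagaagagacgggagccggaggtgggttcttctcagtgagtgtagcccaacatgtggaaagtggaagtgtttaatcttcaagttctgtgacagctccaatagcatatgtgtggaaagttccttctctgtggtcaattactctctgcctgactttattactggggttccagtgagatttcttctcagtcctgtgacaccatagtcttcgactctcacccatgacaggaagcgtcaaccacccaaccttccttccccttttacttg

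The Cd300lf window holds the PU.1 core letters 2 times and the Cd33 window 1 time. RefSeq windows were found for 7 of the 9 members (not for Sirpa and Lilrb4a), and 6 of the 7 hold GAGGAA on either strand, against 28.3% of all 32851 promoter windows of the same length. The exception is Cd300lb, and Pirb holds it 3 times. The C/EBP pattern TTNCNNAA was in 5 of 7 windows, against 40.7% of all, with 3 matches in Cd300lf and 0 in Cd33. The AP-1 pattern TGANTCA and the hypoxia response core ACGTG were in 0 of 7, against 7.81% and 19.6% of all windows. These motifs were chosen after the expression values were seen, and a match of letters describes the window without showing that a factor binds there.

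Between the MI heart and the intact heart the members lay on both sides of no change. This comparison was used to choose Cd300lf and Cd33, so it is given as a description with no p-value for any member. Of the 8, the chosen 2, Cd300lf (higher) and Cd33 (lower), had the largest differences. As they were chosen by these values, this is no separate result. Across all tests 9.5% were called (479 higher and 522 lower), and nothing is read from the members beside it. The median difference of the 8 members was -0.03, against -0.00 for all tests. Among the other 6 members, Pilra had the largest difference, at 0.80 ± 0.24.

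Cd300lf encodes an inhibitory CD300 receptor, also called CLM-1, that binds phosphatidylserine and ceramide. Its raw signal was 333.5 and 312.2 in the MI heart, 82.8 and 81.6 in the intact heart and 74.1 and 103.1 in the peritoneal cavity. On the log2 scale these were 7.92 and 7.92 in the MI heart, 4.37 and 4.22 in the intact heart and 4.14 and 5.04 in the peritoneal cavity. The MI heart arrays were therefore high and nearly alike, whereas both intact heart arrays and 1 peritoneal array were not above background, with detection p-values of 0.120, 0.464 and 0.909. The remaining peritoneal array was above background, at a detection p of 0.00107. The difference between the MI heart and the intact heart was 3.63 ± 0.26, at least 10.7-fold against the lowest level that counted as above background. That bound holds on the background-corrected scale: the difference was 1.90 without background correction, 1.91 with the authors' normalized values and 2.28 with another background model (normexp on the signals alone).

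The same MI heart arrays make up the comparison with the peritoneal cavity, and Cd300lf passed the filter through the MI heart alone, so its values there are also a description, with no p-value. The MI heart minus peritoneal difference was 3.33 ± 0.26, at least 9.08-fold, and lay between 1.83 and 3.78 in 13 alternatives. The intact heart minus peritoneal difference was -0.30 ± 0.26, and the levels overlapped. Cd300lf was measured with 1 probe, so no other probe checks it.

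**Figure D1:**
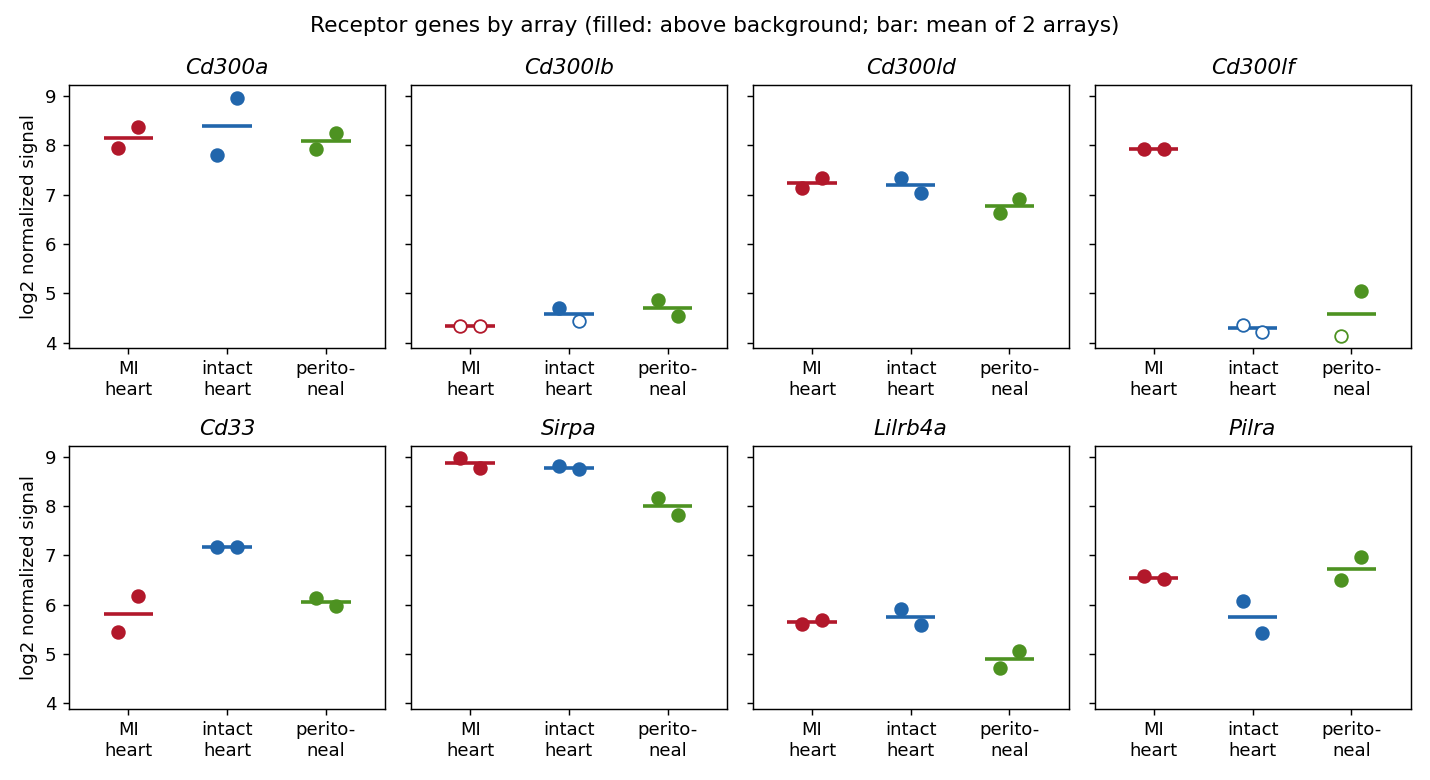
Normalized log2 signal (vertical axis) of the 8 measured receptors on each of the 6 arrays, with MI heart, intact heart and peritoneal cavity from left to right, points for arrays (filled where above background) and bars for group means. Cd300lf stands at 7.92 on both MI heart arrays and at 5.04 or lower on the other 4, while Cd33 is highest on the intact heart arrays.

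Some markers of monocytes were high on the same arrays as Cd300lf. Of 7 monocyte markers, 5 had a probe, and all 5 were above background on both MI heart arrays, against 1 of 5 on each intact heart array and 3 of 5 on each peritoneal array. Their summed linear signal was 637 and 869 in the MI heart, 763 and 674 in the intact heart and 291 and 316 in the peritoneal cavity, so the MI and intact heart overlapped. Plac8 was at 7.23 and 7.02 in the MI heart, 4.22 and 4.24 in the intact heart and 4.31 and 4.26 in the peritoneal cavity. Chil3 (adjusted p = 0.00384) and Vcan (adjusted p = 0.00939) were called higher in the MI heart than in the intact heart. Plac8 passed the filter through the MI heart alone, so only its levels are given. F13a1, which gives the largest part of the sum, was called lower (adjusted p = 0.0111). Ccr2 differed by 0.28 between the MI and intact heart and also passed through the MI heart alone, so it has no p-value. The part of this in the Cd300lf result was not tested.

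Of 9 neutrophil markers with a probe, 5 were above background on no array (Mpo, Camp, Ngp, Cxcr2 and Retnlg). Their summed linear signal was 313 and 201 in the MI heart, 187 and 187 in the intact heart and 180 and 175 in the peritoneal cavity. S100a9 was at 7.25 and 5.42 in the MI heart, 4.43 and 4.41 in the intact heart and 4.35 and 4.25 in the peritoneal cavity. Its difference was 1.91 between the MI and intact heart and 2.04 between the MI heart and the peritoneal cavity. S100a9 passed the filter through the MI heart alone, so these are a description with no p-value. The other neutrophil marker that passed, Ltf, lay the other way between the MI and intact heart (-0.37) and was not called. S100a8 and Elane did not pass the filter, with MI minus intact heart differences of 0.20 and -0.28. Of 9 mast cell and basophil markers, all with a probe, 1 passed the filter and 4 were above background on no array (Mcpt4, Tpsb2, Ms4a2 and Mcpt8). Their summed linear signal was 481 and 327 in the MI heart, 206 and 199 in the intact heart and 1051 and 1014 in the peritoneal cavity. The one that passed, Hdc, was higher in the MI heart than in the intact heart (2.24, adjusted p = 0.00187). Unlike Cd300lf, Hdc was highest in the peritoneal cavity, at 9.81 and 9.73, and lower in the MI heart than there (-1.87, adjusted p = 0.00141). Of 7 fibroblast markers, all with a probe, 4 passed the filter, with a summed linear signal of 188 and 174 in the MI heart, 152 and 145 in the intact heart and 134 and 138 in the peritoneal cavity. Among them Col1a1 had an MI minus intact heart difference of 1.04. It passed the filter through the MI heart alone, so no p-value is given. The others that passed were not called: Pdgfra (-0.02, adjusted p = 0.951), Dcn (0.20, adjusted p = 0.462) and Col3a1. Values of Col3a1 are left out, as its brightest probe was not the one tested. Col1a2 was above background on no array. The part of these markers in the Cd300lf result was not tested.

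Among 8236 named genes that are no members, the patterns nearest to that of Cd300lf over the 6 arrays, by the root mean square difference of mean-centred log2 values, were those of Vegfa (0.378), Plac8 (0.419) and Acod1 (0.423). Vegfa, a growth factor of blood vessels, was at 7.39 and 7.14 in the MI heart, 4.24 and 4.29 in the intact heart and 4.20 and 4.19 in the peritoneal cavity. Acod1, the enzyme that makes itaconate, was at 8.43 and 7.43 in the MI heart, 4.22 and 4.65 in the intact heart and 4.55 and 4.58 in the peritoneal cavity. These genes were high on the MI heart arrays and near background elsewhere. As they were picked for their nearness to Cd300lf on these arrays, this is no separate result.

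The other CD300 members were not called in the comparisons with the peritoneal cavity. Cd300a, an inhibitory receptor for phosphatidylserine and phosphatidylethanolamine, was at 7.94 and 8.38 in the MI heart, 7.80 and 8.97 in the intact heart and 7.93 and 8.25 in the peritoneal cavity. The intact heart arrays were the lowest and the highest of the 6, so every pair of groups overlapped. Its difference was -0.23 ± 0.34 between the MI and intact heart, 0.06 ± 0.34 between the MI heart and the peritoneal cavity (adjusted p = 0.922) and 0.29 ± 0.34 between the intact heart and the peritoneal cavity (adjusted p = 0.576). These values rest on which intact heart array is used. Without intact heart replicate 1 the intact heart minus peritoneal difference was 0.88 (adjusted p = 0.0363), and without replicate 2 it turned to -0.30 (adjusted p between 0.0363 and 0.982 over the alternatives). The MI minus intact heart difference was -0.81 without replicate 1 and turned to 0.36 without replicate 2. A second probe ran likewise, with 7.66 and 7.91 in the MI heart, 7.76 and 8.68 in the intact heart and 7.71 and 7.93 in the peritoneal cavity. The remaining probe stayed near background, between 4.27 and 4.48, and did not pass the filter.

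Cd300ld, an activating receptor that pairs with the Fc receptor gamma chain, was at 7.14 and 7.33 in the MI heart, 7.35 and 7.04 in the intact heart and 6.63 and 6.91 in the peritoneal cavity. Both heart sources lay above the peritoneal arrays without overlap. The differences did not pass the test, at 0.47 ± 0.18 for the MI heart against the peritoneal cavity (adjusted p = 0.126) and 0.43 ± 0.18 for the intact heart against it (adjusted p = 0.126). The difference between the MI and intact heart was 0.04 ± 0.18. Cd300lb, an activating receptor that signals through DAP12, was near background throughout, with raw signals between 83.1 and 90.9. It was above background on 0 MI heart arrays, 1 intact heart array and 2 peritoneal arrays. Its differences from the peritoneal cavity were -0.37 ± 0.18 for the MI heart (adjusted p = 0.211) and -0.13 ± 0.18 for the intact heart (adjusted p = 0.624), with an MI to intact heart difference of -0.23 ± 0.18.

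The CD300 genes lie together on chromosome 11, in the order Cd300a, Cd300lb, Cd300c, Cd300ld, Cd300c2, Cd300ld4, Cd300ld2, Cd300ld5, Cd300ld3, Cd300e and Cd300lf in the reference gene table. Cd300c2 was the other cluster gene higher in the MI heart. Its levels were 5.09 and 5.58 in the MI heart, 4.27 and 4.54 in the intact heart and 4.20 and 4.41 in the peritoneal cavity. It was at least 1.74-fold higher in the MI heart than in the intact heart, a call lost in 9 of 13 alternatives. Against the peritoneal cavity it was at least 1.87-fold higher in the MI heart, lost in 4 of 13. Like Cd300lf, Cd300c2 passed the filter through the MI heart alone, so no p-value is given. Cd300ld3, at 8.43 and 8.78 in the MI heart, 8.73 and 8.69 in the intact heart and 8.62 and 8.29 in the peritoneal cavity, was not called in any of the 3 comparisons. The gene next to Cd300lf on one side, Slc9a3r1, was not called either, at 7.91 and 7.98 in the MI heart, 7.64 and 7.49 in the intact heart and 7.82 and 7.59 in the peritoneal cavity. Rab37, which overlaps Cd300lf in the annotation, and Cd300e did not pass the filter. Probe sequences were not used here, so hybridization of a probe to more than 1 of these similar genes was not tested. The order along the chromosome was looked up after the values were seen.

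**Figure D2:**
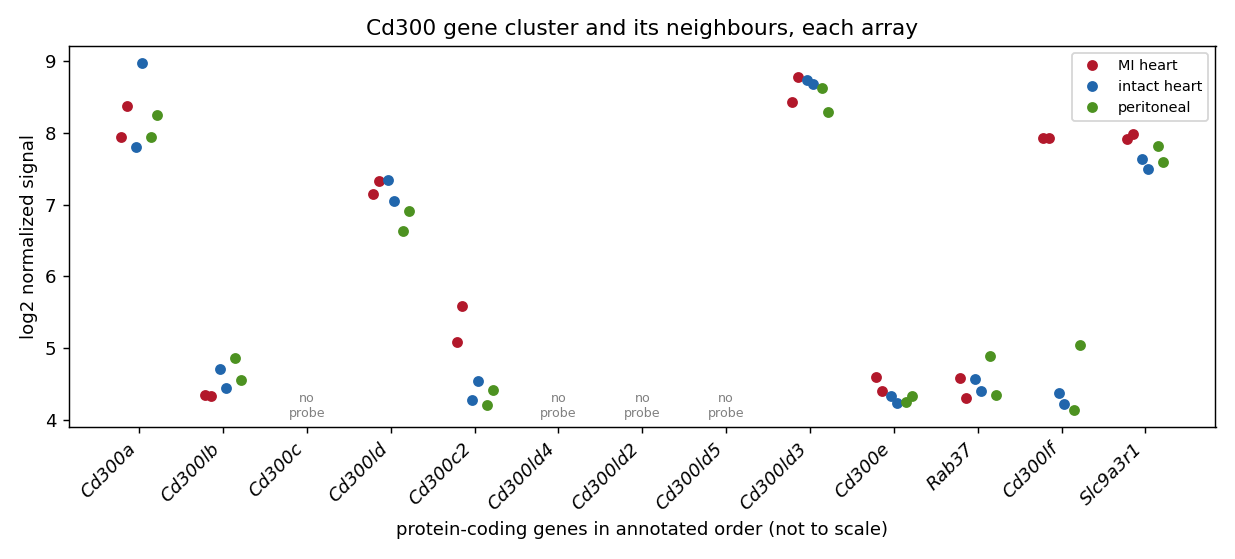
Normalized log2 signal (vertical axis) of the genes of the CD300 cluster and its neighbours in their order along chromosome 11 (horizontal axis, not to scale), with points for single arrays of the MI heart, the intact heart and the peritoneal cavity. The groups stand apart at Cd300lf, by 3.63 between the MI and intact heart, and by 0.93 at Cd300c2, while they overlap or lie close at the other genes.

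Cd33 encodes a lectin that binds sialic acid. In human it is an inhibitory receptor, and the cytoplasmic tail of the mouse protein differs. Its brightest probe gave raw signals of 109.3 and 139.4 in the MI heart, 170.9 and 208.4 in the intact heart and 131.4 and 139.3 in the peritoneal cavity. The log2 levels were 5.45 and 6.18 in the MI heart, 7.16 and 7.18 in the intact heart and 6.13 and 5.97 in the peritoneal cavity. Cd33 was thus highest on both intact heart arrays, and the MI heart arrays lay on either side of the peritoneal ones. The MI minus intact heart difference was -1.36 ± 0.23, or 2.56-fold lower in the MI heart. It was -0.77 without background correction, -0.78 with the authors' normalized values and -0.99 without MI heart replicate 1.

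The intact heart arrays, whose high level was part of the choice of Cd33, also make up the comparison with the peritoneal cavity, and the MI heart arrays the other, so both are given with no p-value. The intact heart minus peritoneal difference was 1.12 ± 0.23 (2.17-fold) and lay between 0.67 and 1.20 in 14 alternatives. The MI heart minus peritoneal difference was -0.24 ± 0.23. The other Cd33 probes were near background. One read 4.34 and 4.39 in the MI heart, 4.87 and 4.81 in the intact heart and 4.75 and 4.41 in the peritoneal cavity, and the third read 4.26 and 4.63 in the MI heart, 4.92 and 4.76 in the intact heart and 4.27 and 4.41 in the peritoneal cavity. On both, the intact heart arrays were highest. The MI minus intact heart differences on these probes were -0.47 and -0.40, and the intact heart minus peritoneal differences 0.26 and 0.51.

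The patterns nearest to Cd33 were those of Fam214a (root mean square difference 0.149), Rhbdf1 (0.175) and Arsb (0.190). Arsb, a lysosomal sulfatase, was at 4.26 and 4.53 in the MI heart, 5.74 and 6.05 in the intact heart and 5.00 and 4.63 in the peritoneal cavity. Each of the 3 genes was highest on both intact heart arrays, which follows from their choice by this pattern. Some markers of other cell types were also highest there. Of 8 cardiomyocyte markers, 7 had a probe and 5 passed the filter, with a summed linear signal of 164 and 168 in the MI heart, 232 and 283 in the intact heart and 143 and 151 in the peritoneal cavity. Myl2 (-1.36, adjusted p = 0.00584) and Myl3 (-0.84, adjusted p = 0.0155) were lower in the MI heart than in the intact heart. Myh6 (-0.44) and Nppa (-0.40) passed the filter through the intact heart alone, so no p-value is given for them. Ryr2 was not called (-0.04, adjusted p = 0.923). Ryr2 was highest in the peritoneal cavity, at 4.94 and 5.21, and Tnni3 was above background on no array. Of 8 dendritic cell markers, all with a probe, 2 passed the filter and 4 were above background on no array (Flt3, Xcr1, Itgae and Cd209a), with a summed linear signal of 165 and 161 in the MI heart, 205 and 190 in the intact heart and 162 and 158 in the peritoneal cavity. The part of these markers in the Cd33 values was not tested.

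Sirpa encodes SIRPα, the inhibitory receptor through which macrophages sense CD47 on other cells. It was at 8.98 and 8.78 in the MI heart, 8.81 and 8.75 in the intact heart and 8.17 and 7.83 in the peritoneal cavity. The heart sources overlapped, with a difference of 0.10 ± 0.18, and both lay above the peritoneal cavity. Sirpa was 1.85-fold higher in the MI heart than in the peritoneal cavity (0.89 ± 0.18, adjusted p = 0.00859) and 1.72-fold higher in the intact heart than in it (0.79 ± 0.18, adjusted p = 0.0121). The first call was lost without MI heart replicate 1 (adjusted p = 0.0832) and without peritoneal replicate 2 (0.0786), the second with median scaling (0.119) and without peritoneal replicate 2 (0.0946). Further probes of a member from here on were tested in a fit of all 14817 probes that passed the filter. A second Sirpa probe ran likewise, at 7.33 and 7.79 in the MI heart, 7.20 and 7.09 in the intact heart and 6.14 and 6.43 in the peritoneal cavity. Its differences were 1.28 ± 0.20 (adjusted p = 0.00231) for the MI heart and 0.86 ± 0.20 (adjusted p = 0.0130) for the intact heart, both against the peritoneal cavity. Cd47, which encodes the ligand, was not called in any of the 3 comparisons, with levels of 7.83 and 7.54 in the MI heart, 7.61 and 7.05 in the intact heart and 7.35 and 7.39 in the peritoneal cavity.

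Lilrb4a, which encodes the inhibitory receptor gp49B, was at 5.61 and 5.70 in the MI heart, 5.92 and 5.59 in the intact heart and 4.72 and 5.07 in the peritoneal cavity. The heart sources overlapped (-0.10 ± 0.19) and both lay above the peritoneal arrays. It was 1.70-fold higher in the MI heart than in the peritoneal cavity (0.76 ± 0.19, adjusted p = 0.0237), but this call was lost in 7 of 14 alternatives, with adjusted p-values of up to 0.172. These include leaving out MI heart replicate 1 (adjusted p = 0.105), MI heart replicate 2 (0.154) or peritoneal replicate 1 (0.172). In the intact heart it was 1.82-fold higher than in the peritoneal cavity (0.86 ± 0.19, adjusted p = 0.0104), lost in 3 of 14 alternatives: median scaling (0.0693), no filter (0.0529) and without peritoneal replicate 1 (0.0899). A second, dimmer probe gave 0.49 for the MI heart (adjusted p = 0.0692) and 0.74 for the intact heart (adjusted p = 0.00956), both against the peritoneal cavity.

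Its near-identical neighbour gp49A, named Lilr4b on the platform, was added after the values were seen, because similar transcripts can be hard to separate on arrays. Lilr4b was at 9.23 and 8.87 in the MI heart, 9.66 and 10.16 in the intact heart and 7.53 and 7.82 in the peritoneal cavity, with no overlap between groups. It was higher than in the peritoneal cavity by 1.38 ± 0.22 in the MI heart (adjusted p = 0.00273) and by 2.24 ± 0.22 in the intact heart (adjusted p = 0.000144). It was lower in the MI heart than in the intact heart (-0.86 ± 0.22, adjusted p = 0.0429), a call lost in 10 of 14 alternatives with adjusted p-values of up to 0.270. Whether the Lilrb4a and Lilr4b probes bind both transcripts was not tested.

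Pilra, an inhibitory receptor paired with the activating receptor Pilrb1, was at 6.57 and 6.52 in the MI heart, 6.07 and 5.42 in the intact heart and 6.49 and 6.96 in the peritoneal cavity. The intact heart arrays were the lowest, and the MI heart and peritoneal arrays overlapped. It was 1.97-fold lower in the intact heart than in the peritoneal cavity (-0.98 ± 0.24, adjusted p = 0.0179), a call lost with no filter (adjusted p = 0.129), without intact heart replicate 2 (0.0757) and without peritoneal replicate 2 (0.141). The MI heart differed from the peritoneal cavity by -0.18 ± 0.24 (adjusted p = 0.676). A second probe gave -1.24 between the intact heart and the peritoneal cavity (adjusted p = 0.0294), with 6.79 and 5.73 in the MI heart, 5.88 and 5.15 in the intact heart and 6.66 and 6.84 in the peritoneal cavity. The third, at 4.36 to 4.73, was near background, with a difference of 0.02 (adjusted p = 0.932). Pilrb1 was likewise lower in the intact heart than in the peritoneal cavity (at least 1.99-fold, adjusted p = 0.00611, lost in 2 of 13 alternatives). It was also lower in the MI heart (-0.73 ± 0.20, adjusted p = 0.0383), though that call was lost in 8 of 13.

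Over the members as a group, 3 of 8 (Cd300lf, Sirpa and Lilrb4a) were higher in the MI heart than in the peritoneal cavity and 0 were lower, where 17.6% of all tests were called. Their median difference was 0.27, against -0.05 for all tests. In the intact heart, 3 of 8 (Cd33, Sirpa and Lilrb4a) were higher and 1 (Pilra) was lower than in the peritoneal cavity, where 25.4% of all tests were called, with a median of 0.36 against -0.03. These counts include Cd300lf and Cd33, whose MI and intact heart arrays took part in their choice, and nothing is read from them beside the shares of all tests. The comparisons also share the peritoneal arrays. Leaving out 1 array at a time moved the count of members called between 1 and 3 for the MI heart and between 1 and 5 for the intact heart. The count of 1 for the MI heart came without MI heart replicate 1, and the count of 1 for the intact heart without peritoneal replicate 2, while without peritoneal replicate 1 it was 2.

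**Figure D3:**
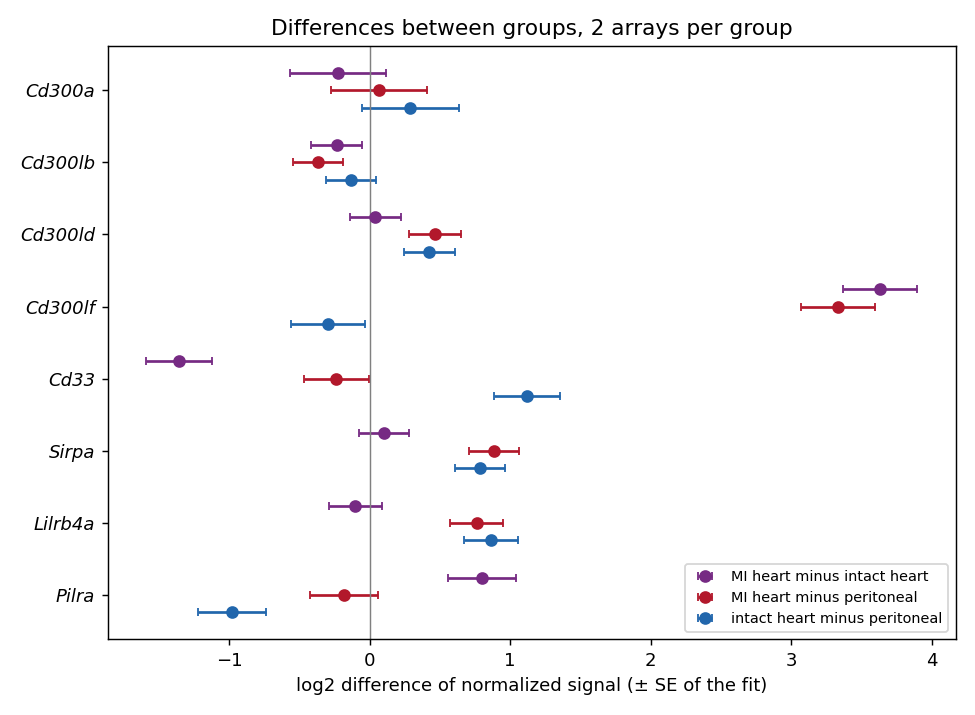
Log2 differences (horizontal axis) of the 8 receptors in the 3 comparisons, with bars for ± 1 SE. Cd300lf lies far to the right in both comparisons of the MI heart (3.63 and 3.33), Cd33 lies left in the MI to intact heart comparison (-1.36) and right in the intact heart to peritoneal comparison (1.12), and Sirpa and Lilrb4a lie right in both comparisons with the peritoneal cavity.

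Of 41 related receptors listed beside the members, 27 had a probe and 17 passed the filter. Between the MI and intact heart, 3 were higher, 2 were lower and 12 not called, with a median of 0.31 against -0.00 for all tests. The share called over all tests was 9.5%, and nothing is read from the count beside it. Trem1, an activating receptor that amplifies inflammatory responses through DAP12, was at 6.23 and 5.72 in the MI heart, 4.15 and 4.22 in the intact heart and 4.23 and 4.3 in the peritoneal cavity. It was at least 2.79-fold higher in the MI heart than in the intact heart. Sirpb1a, the activating SIRP receptor that also uses DAP12, was at 5.86 and 5.81 in the MI heart, 4.27 and 4.55 in the intact heart and 4.29 and 4.41 in the peritoneal cavity. It was at least 2.46-fold higher in the MI heart than in the intact heart. The third higher receptor was Cd300c2. All 3 passed the filter through the MI heart alone, where they were high, so they are described with no p-value.

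The 2 lower receptors of the MI heart were highest on the intact heart arrays, as was Cd33. Lilra5, a receptor of the LILR family, was at 5.55 and 4.61 in the MI heart, 6.67 and 7.43 in the intact heart and 4.18 and 4.28 in the peritoneal cavity. It was lower in the MI heart than in the intact heart (-1.97 ± 0.33, adjusted p = 0.00814), a call lost in 2 of 13 alternatives, with no filter and without MI heart replicate 2. Siglech, of the same family as Cd33, is also among the dendritic cell markers listed here. It was at 4.57 and 4.48 in the MI heart, 5.83 and 5.72 in the intact heart and 4.29 and 4.53 in the peritoneal cavity. Its MI minus intact heart difference was -1.26 ± 0.16 (adjusted p = 0.00280).

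Against the peritoneal cavity, in the MI heart 7 of the 17 related receptors were higher and 2 lower (median 0.35 against -0.05), and 5 were higher and 2 lower in the intact heart (median 0.06 against -0.03). The shares called over all tests were 17.6% for the MI heart and 25.4% for the intact heart. The 7 include Cd300c2, Trem1 and Sirpb1a, which passed the filter through the MI heart alone. Nothing is read from these counts beside the shares of all tests. Lair1, the inhibitory receptor for collagen, was at 6.95 and 6.76 in the MI heart, 6.75 and 6.78 in the intact heart and 4.85 and 5.13 in the peritoneal cavity. Its differences from the peritoneal cavity were 1.87 ± 0.17 for the MI heart (adjusted p = 0.000109) and 1.77 ± 0.17 for the intact heart (adjusted p = 0.000123). Siglec1, the adhesion lectin sialoadhesin, was at least 3.49-fold higher in the MI heart than in the peritoneal cavity (adjusted p = 0.000107). In the other direction, Cd300lg was lower than in the peritoneal cavity in the MI heart (-2.24 ± 0.23, adjusted p = 0.000232) and in the intact heart (-1.79 ± 0.23, adjusted p = 0.000701).

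**Figure D4:**
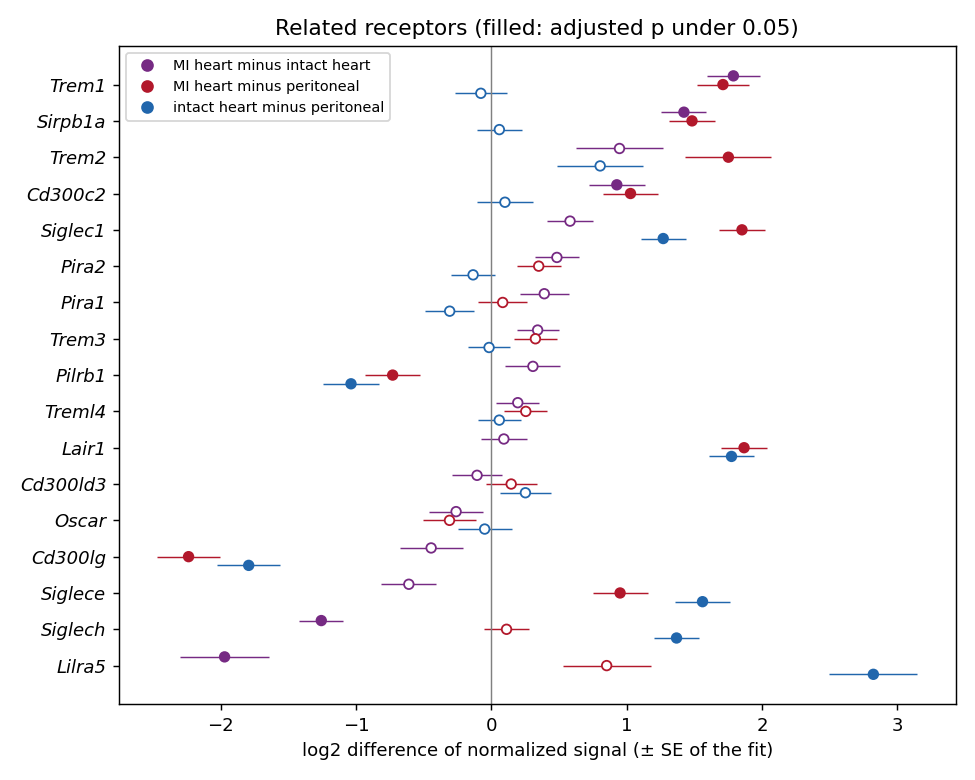
Log2 differences (horizontal axis, bars ± SE) of the 17 related receptors that passed the filter in the 3 comparisons, with filled points for an adjusted p under 0.05. Trem1 and Sirpb1a lie right in both comparisons of the MI heart, Lilra5 and Siglech lie left in the MI to intact heart comparison, and Cd300lg lies left in both comparisons with the peritoneal cavity.

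Of 24 adaptors, kinases and phosphatases, 22 had a probe and 19 passed the filter. Between the MI and intact heart, 1 was higher, 0 lower and 18 not called (median 0.19 against -0.00), with 9.5% of all tests called. The 1 was Fgr, a Src-family kinase of myeloid cells, at 5.75 and 5.76 in the MI heart, 4.38 and 4.25 in the intact heart and 5.38 and 5.59 in the peritoneal cavity. It was at least 2.39-fold higher in the MI heart than in the intact heart (adjusted p = 0.00135). The DAP12 gene Tyrobp, at 9.16 and 9.64 in the MI heart, 9.5 and 9.37 in the intact heart and 9.15 and 9.86 in the peritoneal cavity, was not called in any of the 3 comparisons. The Fc receptor gamma chain gene Fcer1g and the phosphatase gene Ptpn11 were not called either.

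Against the peritoneal cavity, in the MI heart 4 of the 19 were higher and 1 lower (median 0.16 against -0.05), and 4 were higher and 4 lower in the intact heart (median 0.07 against -0.03). Over all tests, 17.6% and 25.4% were called in these 2 comparisons with the peritoneal cavity. Pik3ap1, the adaptor BCAP that links receptors to PI3 kinase, was higher by 2.10 ± 0.18 in the MI heart (adjusted p = 7.72e-05) and by 1.53 ± 0.18 in the intact heart (adjusted p = 0.000374). Blnk, an adaptor downstream of Syk, was at least 2.34-fold higher in the MI heart (adjusted p = 0.00382) and at least 2.6-fold higher there in the intact heart (adjusted p = 0.00171). Hcst, the adaptor DAP10, was lower in the MI heart (-1.47 ± 0.16, adjusted p = 0.000320) and in the intact heart (-1.73 ± 0.16, adjusted p = 0.000107). Of the phosphatases that inhibitory tails recruit, the SHIP1 gene Inpp5d was higher than in the peritoneal cavity both in the MI heart (0.96 ± 0.16, adjusted p = 0.00303) and in the intact heart (0.72 ± 0.16, adjusted p = 0.00986, lost in 3 of 14 alternatives). The SHP-1 gene Ptpn6 was lower in the intact heart than there (-0.63 ± 0.19, adjusted p = 0.0426), a call lost in 4 of 14 alternatives.

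Of 17 protein ligands, 16 had a probe and 11 passed the filter. In the MI heart 1 was higher and 0 lower against the intact heart (median 0.20 against -0.00), with 9.5% of all tests called. This was Fn1, which encodes the matrix protein fibronectin. It was at 7.93 and 7.74 in the MI heart, 5.11 and 4.86 in the intact heart and 9.45 and 9.54 in the peritoneal cavity. All 3 groups were apart, with differences of 2.85 ± 0.17 for the MI heart against the intact heart (adjusted p = 5.94e-05), -1.66 ± 0.17 for the MI heart against the peritoneal cavity (adjusted p = 0.000200) and -4.51 ± 0.17 for the intact heart against it (adjusted p = 1.45e-06). Against the peritoneal cavity, in the MI heart 2 ligands were higher and 1 lower (median 0.26 against -0.05), and 1 was higher and 1 lower in the intact heart (median -0.04 against -0.03). Over all tests, 17.6% were called for the MI heart and 25.4% for the intact heart, both against the peritoneal cavity. Itgav, an integrin chain, was higher by 1.87 ± 0.26 in the MI heart (adjusted p = 0.00136) and by 1.88 ± 0.26 in the intact heart (adjusted p = 0.00106). Rtn4, which encodes Nogo, was higher in the MI heart (0.74 ± 0.22, adjusted p = 0.0479), a call lost in 8 of 14 alternatives.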

How the data were processed

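RNA of 6 samples was measured on Illumina bead arrays. The deposited table gives, per the file headers, each of 45281 probes an intensity and a detection p-value on every array. The intensities are linear and not normalized. The deposited series matrix holds intensity values that the authors had normalized to 1 distribution, and 4 of its 6 columns follow the signal column of the other replicate of the same group. Scanner software is not given in the sources used here.

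Normalization used neqc of limma 3.58.1 (R 4.3.3; background from detection p-values, offset 16, quantile normalization, log2). A probe was kept where both arrays of 1 or more groups had a detection p under 0.05 (14817 probes), the brightest standing for each symbol, which left 10533 tests. Models were fitted with lmFit and eBayes to the 6 arrays together, and 3 comparisons were tested two-sided with Benjamini-Hochberg adjustment at 0.05. A fold is a lower bound ("at least") where an array of the dimmer group was not above background, set against the lowest value above background there. The fit was tested on simulated data. Symbols came from the platform annotation (1 symbol for 34885 probes, several for 18, none for 10378).

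The members and lists were chosen with earlier results of these data known. Named are all members with every probe, the called genes with the 3 largest differences per list and comparison, and the 3 genes nearest in pattern to Cd300lf and Cd33. Cd300c2, Cd300ld3, Siglech, Pilrb1, Cd47, Tyrobp, Fcer1g, Ptpn11, Inpp5d and Ptpn6 were named beyond this rule, after their values were seen. Alternatives changed scaling, background correction, filter, values, probes, replicate block and single arrays. With the replicate number as a check of pairing, deviations of same-numbered arrays correlated at 0.08, 0.17 and 0.18, so arrays were not treated as paired.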

Additional observations from a re-analysis of the deposited data

How the results depend on the processing

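No result changed its direction while called in the 14 alternatives, 6 of which left out 1 array. Without background correction 660 genes were called between the MI and intact heart, against 1001 in the report, and with the series matrix values 653. Differences between the MI and intact heart were 1.90, 2.28 and 1.91 for Cd300lf and -0.77, -0.92 and -0.78 for Cd33 without background correction, with normexp on the signals alone and with the series matrix values. With no filter on dim probes 424 genes were called between the MI and intact heart and 1184 between the MI heart and the peritoneal cavity, with 11 listed receptors, adaptors and ligands in that comparison and 1 member between the intact heart and the peritoneal cavity. With detection p under 0.01 required on all 6 arrays, where fewer genes are tested and Cd300lf and Cd300lb are left out, 565, 1054 and 1523 genes and 1, 10 and 10 listed genes were called in the order MI against intact heart, MI heart against peritoneal cavity and intact heart against peritoneal cavity. Median scaling left 1 member called between the intact heart and the peritoneal cavity. It moved the median of all tests to 0.12 (MI minus intact heart) and -0.18 (intact heart minus peritoneal cavity), and the share of higher genes among those called to 78.7% (against 47.9%) and 27.8% (against 49.4%). The cause of these shifts was not tested.

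Leaving out 1 array at a time gave 249 to 970 genes called between the MI and intact heart (249 without MI heart replicate 1, 268 without replicate 2 and 590 without either peritoneal array), 917 to 2174 between the MI heart and the peritoneal cavity (917 without MI heart replicate 2) and 1426 to 2388 between the intact heart and the peritoneal cavity (1426 without peritoneal replicate 1). The members called ranged from 1 to 3 and from 1 to 5 in the comparisons of the MI heart and of the intact heart with the peritoneal cavity. The listed genes called ranged from 5 to 7, 11 to 19 and 12 to 19 in the 3 comparisons. Cd33 ranged from -1.73 to -0.99 and Cd300lf from 3.56 to 3.70 between the MI and intact heart. With the replicate block, 1315, 2150 and 3037 genes were called, and 3 and 4 members against the peritoneal cavity, as without it. Signal over background limits Cd300lb, the dimmer probes of Cd33 and Cd300lf outside the MI heart.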
